A study of Mus musculus with 6 samples.

Results

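Mef2a, Mef2c, Mef2d and Tcf4 encode transcription factors that set synapse number and neuronal maturation, and their transcripts were followed here in single nuclei of the prelimbic (PL) area of the mouse medial prefrontal cortex. The 4 genes were picked by name, with earlier results of these data known, and are 4 of the 32285 genes in the count tables. Each of the 4 passed the filter on low counts in every fit described. Single-nucleus RNA sequencing (snRNA-Seq) had been done on 6 libraries, each made from the PL of 3 pooled C57BL/6 males that were not brothers. Run males had been raised by mothers with a running wheel from postnatal day 2 to day 21, and Sed males by mothers without one. After weaning the males lived in a group (GH) or singly (SI), and none of them had a wheel themselves. The libraries were RunGH and SedGH in dataset 1, and RunGH, SedGH, RunSI and SedSI in dataset 2. Males of dataset 1 had competed in the tube test of social dominance, whereas males of dataset 2 were untested. Per the paper, the Run and Sed males taken for dataset 1 held the top and bottom ranks of their groups. Read in that order, Run against Sed in dataset 1 also compares ranks, and these cannot be told apart. The labels name postnatal day 21, the day of weaning, whereas the tissue came from adults of about 4 months. Because each group had 1 library per dataset, p-values measured only the spread between these libraries. In the edgeR contrasts between cell classes that spread was pooled over the classes in 1 fit. Below, 6 values given "in library order" follow the list of libraries above.

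The MEF2 proteins bind an A/T-rich box in promoters and enhancers and are held inactive by class II histone deacetylases such as Hdac4, Hdac5, Hdac7 and Hdac9. Calcium entering an active neuron releases them through calcineurin and calmodulin-dependent kinases, and they then switch on genes such as Arc, Nr4a1, Bdnf and Homer1, some of which remove excitatory synapses. Mef2c is the member best known for its role in cortical neurons, including the maturation of parvalbumin (PV) interneurons, and both Mef2a and Mef2c act in microglia, the resident macrophages of the brain. Tcf4 is an E-protein, a widely expressed basic helix-loop-helix factor that binds E-boxes as a dimer with partners such as Neurod2 or Olig2, is sequestered by Id proteins, and is mutated in Pitt-Hopkins syndrome.

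The letters these factors read were looked for in the promoters of the MEF2 genes, 250 bases before to 50 after each start site in the RefSeq annotation of GRCm38.p6, and the Mef2a window and the most upstream of the Mef2c windows are shown, each for its matches. Capitals mark a MEF2 box in Mef2a (minus strand, chr7:67372839-67372978, first capital at position -2 from the start site) and the E-boxes, CANNTG, in the most upstream Mef2c promoter (plus strand, chr13:83503784-83504033, first capitals at -234 and -100).
Mef2a: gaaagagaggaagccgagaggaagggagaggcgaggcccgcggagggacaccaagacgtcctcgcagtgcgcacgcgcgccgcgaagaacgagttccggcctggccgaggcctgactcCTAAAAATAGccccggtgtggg
Mef2c: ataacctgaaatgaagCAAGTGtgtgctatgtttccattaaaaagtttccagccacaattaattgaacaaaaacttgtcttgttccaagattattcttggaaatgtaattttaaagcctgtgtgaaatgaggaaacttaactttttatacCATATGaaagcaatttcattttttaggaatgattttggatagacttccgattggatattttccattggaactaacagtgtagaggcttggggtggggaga
A MEF2 box on either strand was present in 3.19% of all 32851 promoter windows of 300 bases, and at least 1 E-box, which reads the same on both strands, in 72.3%. The other windows of Mef2c held 0 and 1 E-box, and the Mef2d window held neither motif. Such matches describe letters only and were not related to any level below.

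In mm10 (GENCODE M21), Mef2a (ENSMUSG00000030557) lies on chromosome 7 at 67231163 to 67372858, minus strand, and Mef2c (ENSMUSG00000005583) on chromosome 13 at 83504034 to 83667080, plus strand. Mef2d (ENSMUSG00000001419) lies on chromosome 3 at 88142372 to 88172086, plus strand, and Tcf4 (ENSMUSG00000053477) on chromosome 18 at 69343356 to 69689079, plus strand. On their own strand Mef2a also contains Gm44667 (3337 bases) and Gm44668 (3265 bases), and Tcf4 contains the ribosomal RNA gene Gm24845 (109 bases), so reads there could be shared. The spans of the 4 genes are 141696, 163047, 29715 and 345724 bases. Counts included reads in introns, so a long gene collects more of them, and levels were not compared between genes. Mef2a shares 76168 bases of its span with Lysmd4 on the opposite strand, and Mef2d shares 531 bases with the antisense gene 1700113A16Rik.

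After filtering, the libraries held 4997 to 9936 nuclei (42595 in all) with a median of 1637 to 6250 UMIs, molecules counted once by their molecular identifier, and any pair of libraries shared only 5 to 22 droplet barcodes. SedGH of dataset 2 was the shallowest, at 1637 UMIs, against 3396 to 4033 in the rest of dataset 2. In that dataset it is the only reference for Run against Sed under group housing and for isolation among Sed. Dataset 1 stood apart in free RNA: its background droplets had a median of 1164 and 1402 UMIs, 20.8% and 22.4% of a median nucleus, against 4.47% to 8.07% in dataset 2. Nuclei were clustered without the 4 genes, and 39866 of them fell into classes named from markers. These were pyramidal neurons (33704 nuclei), PV (1434), SST (1263), VIP (724) and NPY (516) interneurons, astrocytes (1331), oligodendrocytes (277), oligodendrocyte precursors (321), microglia (150) and vascular cells. The 6 PV markers summed to 2209 to 3269 CPM (a gene's UMIs scaled to the same total in every class and library) in PV nuclei and 543.5 to 1008 in pyramidal nuclei as a whole, but to 1582 to 2897 in the Scn7a-led pyramidal cluster, which overlaps PV, to 945.1 to 1604 in layer 5 intratelencephalic and to 959.3 to 1717 in VIP nuclei. The microglial markers reached 2792 to 5231 in microglia and at most 333.4 in any other class. Pyramidal transcripts were also found in other classes, since the 5 pyramidal markers summed to 3835 to 4445 in pyramidal nuclei and to 1350 and 1348 in astrocytes of dataset 1, against 392 to 631 in those of dataset 2. They summed to 922.9 to 1740 in VIP, 673.5 to 1551 in NPY, 351.1 to 1146 in SST and 358.2 to 1131 in PV nuclei, and their part in the interneuron levels below was not tested. The 3 markers of layer 5 intratelencephalic neurons did not single out that class, with a median of 440.7 CPM in it, 515.2 in layer 5 near-projecting nuclei and 1393 in astrocytes. Intervals given below cover counting error only.

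Mef2a was highest in microglia. Its level in microglia was 1042 CPM in RunGH and 625 in SedGH of dataset 1, and 1089, 1530 and 1459 in RunGH, RunSI and SedSI of dataset 2 (SedGH of dataset 2 had only 9 microglia and was left out). Pyramidal nuclei had 124, 116, 105, 111, 112 and 119 CPM in library order. The ranges were far apart, and microglia were the highest of 15 classes in all 5 libraries that had them. In edgeR the difference was 2.77 ± 0.14 on the log2 scale (SE, adjusted p = 2.29e-28), in a contrast where 42.5% of 9049 genes were called. This SE and p rest on a spread pooled over the classes and do not measure that of the microglia alone. Over libraries the SD of the log2 level was 0.51 in microglia and 0.08 in pyramidal nuclei. With each nucleus reduced to 1000 UMIs, 33.3% to 76.5% of microglia had a Mef2a UMI, compared with 9.99% to 11.8% of pyramidal nuclei. Background droplets carried 193.8 and 197.1 CPM of Mef2a in dataset 1 and 110.3 to 116.6 in dataset 2, under every microglial level but close to or above the pyramidal ones, so the pyramidal share was not read as expression. The microglia were few, 12 to 50 per library, and astrocyte markers summed to 1449 to 6120 CPM in them. The part of those astrocyte transcripts in the Mef2a level was not tested, while astrocytes themselves had only 97.9 to 155 CPM of Mef2a.

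Among neurons, Mef2a was higher in PV interneurons (174, 184, 176, 193, 195 and 215 CPM in library order) than in pyramidal neurons in every library, by 0.62 ± 0.11 (adjusted p = 2.14e-06, 50.4% of genes called). NPY interneurons had the highest neuronal mean, 207 ± 22.0 CPM (SD, n = 6), and did not differ from PV by the test (0.12 ± 0.14, adjusted p = 0.591, 24.8% of genes called). VIP interneurons were below PV by 0.40 (log2 fold change -0.40 ± 0.14, adjusted p = 0.0243, 25.8% of genes called), a call that was lost without RunGH of dataset 1 (-0.39, adjusted p = 0.0661), RunSI (-0.34, adjusted p = 0.0868) or SedGH of dataset 2 (-0.37, adjusted p = 0.0728). In dataset 1 the PV levels lay below the 193.8 and 197.1 CPM of background droplets, and in dataset 2 above their 110.3 to 116.6. Pyramidal layers were not alike in Mef2a, though layer 6 corticothalamic levels, at most 183 CPM, also lay below background in dataset 1. Layer 6 corticothalamic nuclei, which project to thalamus, had 173 ± 11.2 CPM, and layer 5 near-projecting nuclei 181 ± 17.0 CPM. Layer 2/3, layer 5 and layer 6 intratelencephalic nuclei and the Scn7a-led pyramidal cluster had mean levels of 102 to 109 CPM. Layer 5 extratelencephalic nuclei, which project to brainstem and spinal cord, were the lowest of all classes in 6 of 6 libraries, at 86.6, 75.7, 71.7, 73.1, 79.1 and 93.0 CPM.

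**Figure D1:**
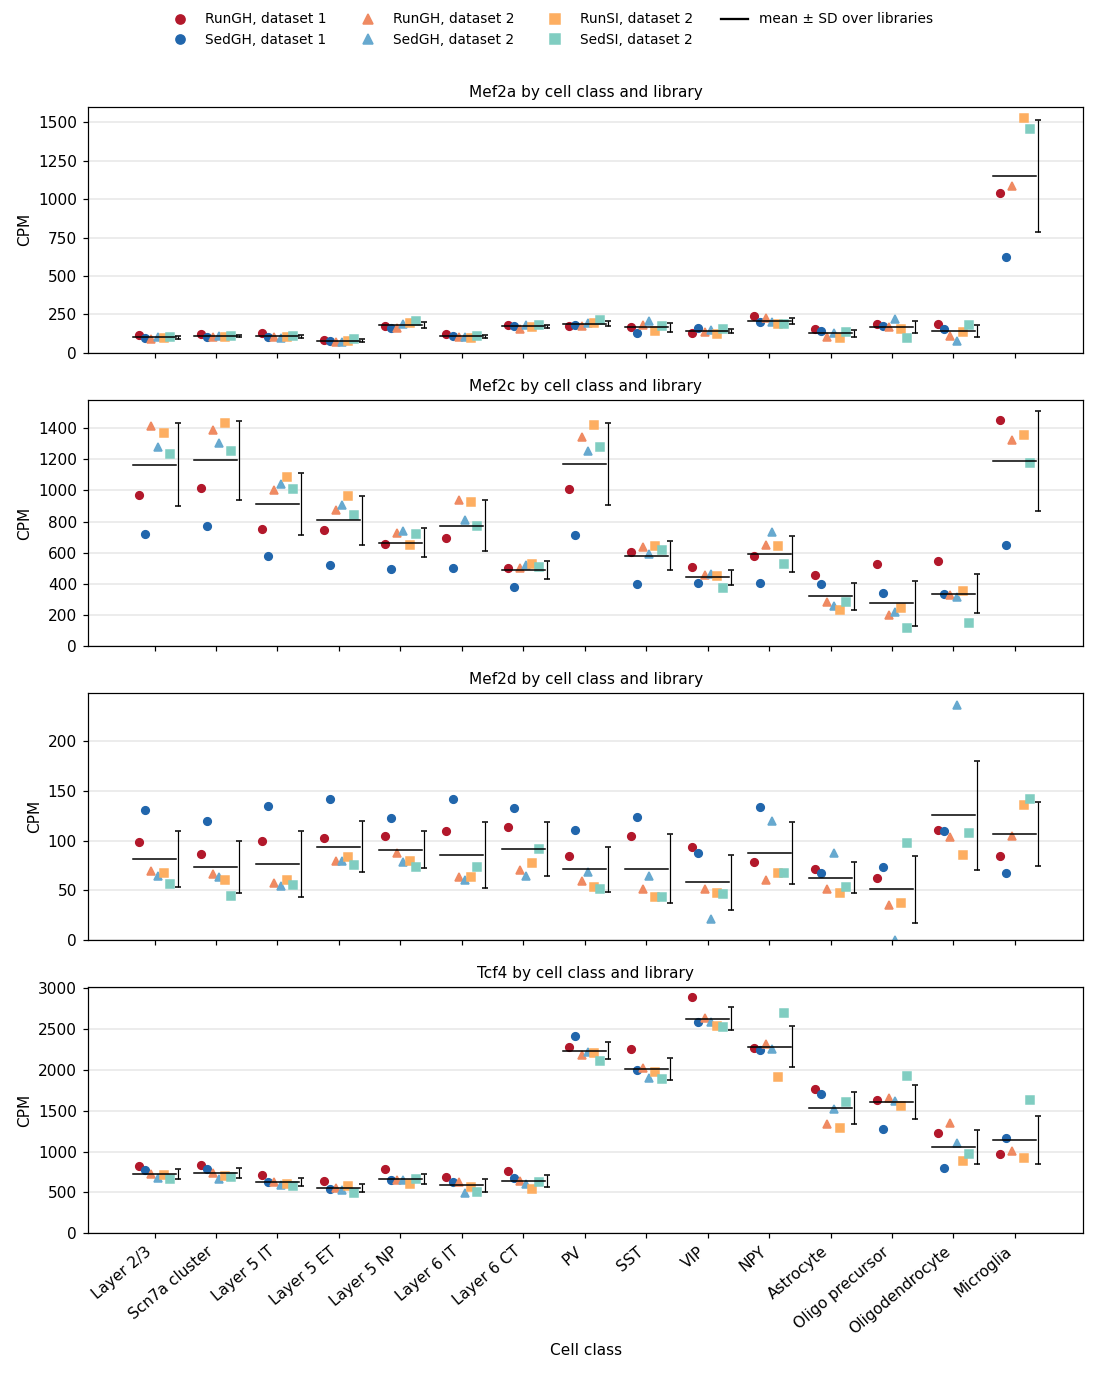
Level of Mef2a, Mef2c, Mef2d and Tcf4 (CPM, one panel per gene, linear axes from 0) in 15 cell classes, with 1 point per library coloured and shaped by group and dataset, and lines for the mean ± SD over libraries. Mef2a stands out in microglia, Mef2c in layer 2/3, the Scn7a cluster, PV and microglia, and Tcf4 in the interneuron classes, while the dataset 1 points lie lowest for Mef2c in most pyramidal layers and highest for Mef2d in all of them.

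Mef2c was high in upper-layer pyramidal neurons, PV interneurons and microglia and low in the other interneurons and in the oligodendrocyte lineage. PV nuclei had 1010, 712, 1346, 1251, 1418 and 1279 CPM in library order and pyramidal nuclei had 853, 590, 1056, 1044, 1064 and 998. PV exceeded pyramidal nuclei in each library, but the difference did not pass (0.23 ± 0.19, adjusted p = 0.316). Within the interneurons the mean level of Mef2c was highest in PV nuclei. Background droplets held 1191, 983, 1069, 1156, 1142 and 1199 CPM of it in library order. The PV levels lay above these in dataset 2 only. All SST, VIP and NPY levels and all pyramidal levels lay below them, so differences between these classes were not read as free of background. SST nuclei had 607, 397, 637, 591, 646 and 618 CPM, less than PV in each library, and PV exceeded SST by 1.00 ± 0.19 (adjusted p = 2.89e-05, 22.1% of genes called). VIP nuclei, at 372 to 506 CPM, were lower than PV by 1.38 (-1.38 ± 0.20, adjusted p = 3.97e-08), and NPY nuclei, at 406 to 734 CPM, by 1.04 (-1.04 ± 0.20, adjusted p = 2.07e-05).

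Across pyramidal classes the mean level of Mef2c was highest in the Scn7a-led cluster and layer 2/3, without a strict order by depth. The Scn7a-led cluster had 1195 ± 253 CPM (SD, n = 6), layer 2/3 nuclei had 1165 ± 266, layer 5 intratelencephalic nuclei 912 ± 200, layer 5 extratelencephalic nuclei 808 ± 157, layer 6 intratelencephalic nuclei 774 ± 163, layer 5 near-projecting nuclei 666 ± 90.9 and layer 6 corticothalamic nuclei 490 ± 55.6. The SDs are wide because all layers moved together between libraries: the step from layer 2/3 to layer 5 intratelencephalic was 0.35 ± 0.08 (SD of log2 differences, n = 6) and had the same sign in 6 of 6 libraries (exact sign-flip permutation p = 0.03125, the smallest that 6 libraries can give, adjusted p = 0.0875). Layer 5 near-projecting and layer 6 corticothalamic nuclei, the pyramidal classes with the highest mean Mef2a, had the lowest mean Mef2c. The means of all layer 5 and layer 6 classes lay below the 983 to 1199 CPM of background droplets.

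In astrocytes Mef2c read 456, 401, 286, 262, 232 and 284 CPM in library order, below pyramidal nuclei in every library and by 1.61 overall (-1.61 ± 0.20, adjusted p = 8.85e-11, 67.7% of genes called). Background droplets carried 983 to 1199 CPM of Mef2c, and after subtraction of their profile the astrocyte level was 79.0 to 198 CPM and the difference -2.93. Since the astrocyte levels lay below those of background droplets, the share of thinned astrocytes with a Mef2c UMI, 20% to 38.0%, was not read as expression. Oligodendrocyte precursors had 117 to 526 CPM, less than astrocytes in 4 of 6 libraries. After subtraction they had 0 to 187 CPM, a range that overlapped that of astrocytes. Microglia had 648 to 1454 CPM, more than pyramidal nuclei in each of the 5 libraries that had them, and 404 to 1571 CPM after subtraction. The fitted difference under TMM scaling had the opposite sign and did not pass (-0.21 ± 0.22, adjusted p = 0.474, and 0.05 in DESeq2). On the log2 scale the mean level was 10.16 in microglia and 9.84 in pyramidal nuclei, so no direction was read. The 5 pyramidal markers summed to 1817 and 1631 CPM in microglia of dataset 1 and 492.3 to 839.4 in those of dataset 2, and their part in the Mef2c level was not tested.

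Mef2d had low counts and was the flattest of the 4 across classes. Pyramidal nuclei had 99.6, 132, 68.3, 65.0, 69.7 and 63.7 CPM in library order, PV nuclei 84.9, 110, 59.7, 67.9, 52.9 and 51.2, and astrocytes 71.0, 67.1, 50.8, 87.2, 47.1 and 53.2. PV was below pyramidal in 5 of 6 libraries, by 0.34 (-0.34 ± 0.11, adjusted p = 0.00599, but 0.0723 in DESeq2), and astrocytes in 5 of 6, by 0.66 (-0.66 ± 0.13, adjusted p = 4.41e-06). Oligodendrocytes (111, 109, 104, 236, 85.1 and 107 CPM) exceeded their precursors (62.3, 73.0, 34.9, 0, 37.6 and 97.4 CPM) in 6 of 6 libraries, by 0.95 ± 0.28 (adjusted p = 0.00753, 20.9% of genes called). These last levels rest on 3 to 22 and 0 to 18 counts per library. The 0 of 13595 UMIs in precursors of SedGH, dataset 2, allows up to 221 CPM. Background droplets held 61.6, 61.7, 84.4, 63.1, 78.0 and 68.6 CPM of Mef2d in library order. Pyramidal, PV and astrocyte levels lay below these in RunGH of dataset 2, RunSI and SedSI, and above them in the remaining libraries. Precursors lay below them in RunGH and SedGH of dataset 2 and in RunSI. Differences between these classes were therefore not read as free of background.

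Tcf4 was higher in PV interneurons than in pyramidal neurons, and the other interneuron classes lay near PV. PV nuclei had 2278, 2415, 2188, 2223, 2205 and 2109 CPM in library order and pyramidal nuclei had 774, 698, 668, 614, 630 and 614. The ranges did not overlap, and the difference was 1.66 ± 0.16 (adjusted p = 2.31e-14). Of nuclei thinned to 1000 UMIs, 82.5% to 89.2% of PV and 44.1% to 51.0% of pyramidal nuclei had a Tcf4 UMI. Background droplets carried 1018 and 940 CPM of Tcf4 in dataset 1, above the pyramidal level, and 431 to 498 in dataset 2, below it, so the pyramidal share of dataset 1 was not read as expression. The 4 interneuron classes lay close together: VIP nuclei averaged 2626 ± 138 CPM, NPY 2285 ± 250, PV 2236 ± 103 and SST 2007 ± 133. VIP were highest of all classes in 5 of 6 libraries, NPY in SedSI, and neither VIP nor NPY nor SST differed from PV by the test (adjusted p = 0.271, 0.977 and 0.594), although DESeq2 called VIP above PV (0.27, adjusted p = 0.00325). Pyramidal layers spanned means of 557 to 735 CPM, with layer 5 extratelencephalic lowest and the Scn7a cluster highest.

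Glia had intermediate Tcf4. Astrocytes had 1769, 1708, 1333, 1526, 1290 and 1608 CPM, above pyramidal nuclei by 1.08 ± 0.16 (adjusted p = 1.76e-08). Oligodendrocyte precursors had 1634, 1277, 1658, 1618, 1552 and 1928 CPM, and oligodendrocytes 1222, 801, 1348, 1103, 884 and 965. Each library showed the lower value in the mature cells, and the difference was -0.61 ± 0.17 (adjusted p = 0.00557), which did not pass without RunSI (-0.53, adjusted p = 0.0617). Opposite to this, Mef2d was the member that was higher in the mature cells. Microglial Tcf4, at 921 to 1637 CPM, lay above every pyramidal level, with mean log2 levels of 10.12 and 9.38. In edgeR with TMM scaling the fitted difference was smaller and did not pass (0.13 ± 0.18, adjusted p = 0.625). It was called higher in DESeq2 (0.38), but below the median of all genes in that run. It was also called when the clustering kept the 4 genes (0.91), where they could help to set the classes. No direction was read from these calls.

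**Figure D2:**
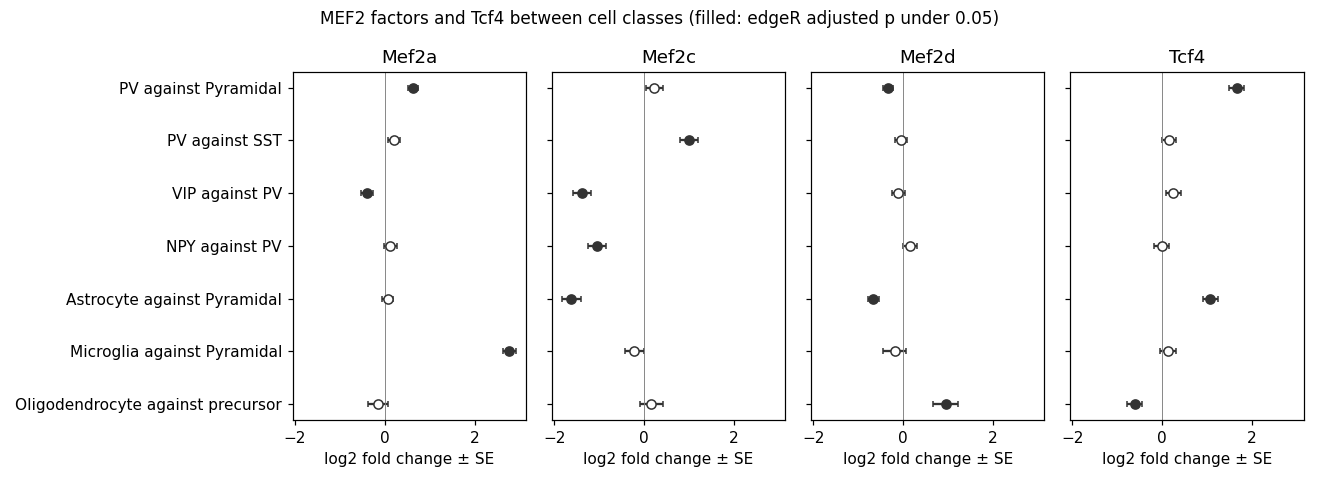
Log2 fold change ± SE between cell classes from edgeR for each gene (panels), with 7 contrasts as rows and filled points for adjusted p under 0.05. Of 28 values 13 were called: Mef2a is far to the right in microglia, Mef2c is set apart in PV against the other interneurons, Mef2d shows small differences and Tcf4 is to the right in PV and astrocytes against pyramidal nuclei.

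In all, 13 of the 28 class contrasts of the 4 genes were called, in contrasts that called 20.9% to 67.7% of all genes. Ordered by mean level, no step between neighbouring classes passed an exact sign-flip permutation test over libraries after Benjamini-Hochberg adjustment over the steps of a gene, and 10 of 56 steps had an unadjusted p under 0.05. With 6 libraries the smallest possible two-sided p is 0.03125 and with 5 it is 0.0625, and the smallest adjusted value was 0.0875, for Mef2c. Steps with the same sign in 6 of 6 libraries were PV over layer 5 near-projecting and layer 2/3 over layer 5 extratelencephalic for Mef2a. For Mef2c they were layer 2/3 over layer 5 intratelencephalic, that over layer 5 extratelencephalic, layer 6 intratelencephalic over layer 5 near-projecting, that over NPY, and SST over layer 6 corticothalamic. For Tcf4 they were PV over SST, oligodendrocyte over the Scn7a cluster, and layer 2/3 over layer 5 near-projecting, and for Mef2d there were none. Because no step passed after adjustment, no order of neighbouring classes was resolved for any of the 4 genes. Examples are NPY, PV for Mef2a, Scn7a cluster, microglia, PV, layer 2/3 for Mef2c and NPY, PV for Tcf4.

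The class patterns of the 4 genes had little in common. Over 15 classes, Pearson's r of the mean log2 (CPM + 1) was 0.15 for Mef2a and Mef2c, 0.26 for Mef2a and Mef2d, 0.27 for Mef2c and Mef2d, 0.30 for Mef2a and Tcf4, -0.34 for Mef2c and Tcf4 and -0.46 for Mef2d and Tcf4. The classes come from the same 6 libraries, so these are descriptions. Among 6559 genes with at least 50 CPM in 1 class, the patterns most like Mef2a were those of Lysmd4 (r = 0.95), which overlaps it, Tubgcp5 (0.94), Fermt3 (0.93), Slc7a7 (0.93) and Fcrls (0.93). Those most like Mef2c were Rtn4rl1 (0.88), Iqce (0.85), Fmnl1 (0.84), Rapgef5 (0.84) and Ddx10 (0.83). Mef2d was followed by Brap (0.91), Utp14a (0.89), 1700084C06Rik (0.88), Fbxl5 (0.87) and Atp6v0d1 (0.85). Nearest to Tcf4 were Sox1ot (0.94), Btbd11 (0.93), Npas3 (0.93) and the GABA-synthesising enzyme Gad1 (0.93), of which Btbd11 and Gad1 were also markers used to name classes.

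The partners, repressors and known targets of these factors were read from a list of 44 genes, 34 of which were abundant enough for the class contrasts. Between PV and pyramidal nuclei 5 were higher and 15 lower in PV, where 50.4% of all genes were called. Of 10 tested MEF2 targets described in neurons 2 were higher, the adenylyl cyclase Adcy8 (1.78 ± 0.10) and the potassium channel Kcna1 (1.21 ± 0.10), and 5 were lower, among them Bdnf (-2.80 ± 0.26), the synaptic scaffold gene Homer1 (-1.51 ± 0.15) and the nuclear receptor Nr4a1 (-1.41 ± 0.12). Of 13 MEF2 repressors and signal enzymes 6 were lower, such as the calmodulin-dependent kinase Camk4 (-2.45 ± 0.19) and the deacetylase Hdac9 (-1.20 ± 0.21), and Hdac5 (0.74 ± 0.12) was higher. Among 9 Tcf4 partners, Neurod2 (-2.83 ± 0.22), Neurod6 (-2.36 ± 0.20) and Id2 (-0.89 ± 0.24) were lower and Id4 (1.89 ± 0.31) was higher. Of the 2 tested genes described as responsive to Tcf4, 1 was higher in PV, the cell adhesion gene Cntnap2 (2.16 ± 0.38), and 1 was lower. The median of the 34 genes was -0.14, and that of all genes tested 0.06.

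The remaining contrasts are given as counts. Against pyramidal nuclei, astrocytes had 10 of the 34 genes higher and 17 lower (median -0.25 against 0.07 for all genes, 67.7% of which were called), and the largest were the Id genes Id4 (5.98 ± 0.17), Id3 (5.56 ± 0.23) and Id2 (2.77 ± 0.15), whose proteins block E-proteins. Microglia had 8 higher and 15 lower (median -0.56 against -0.16, 42.5% called), with Rgs2, a regulator of G-protein signalling, at 2.42 ± 0.42. Against PV nuclei, SST had 5 higher and 3 lower, VIP 8 higher and 4 lower, and NPY 8 higher and 5 lower, where 22.1%, 25.8% and 24.8% of all genes were called. The SST count was near that share. Oligodendrocytes had 6 higher and 4 lower than their precursors (20.9% of all genes called), among them Tcf12, the E-protein closest in role to Tcf4, at 0.78 ± 0.15, and the oligodendrocyte lineage factor Olig1 at -1.50 ± 0.46. Mef2b, the remaining MEF2 gene, had a mean of 1.86 CPM in pyramidal nuclei and was left out of the edgeR contrasts by the filter on low counts. DESeq2, run without that filter, called it in astrocytes and in microglia against pyramidal nuclei.

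Between the datasets 4 of 8 values (4 genes in pyramidal and PV nuclei) were called. Pyramidal Mef2d was 99.6 and 132 CPM in dataset 1 and 63.7 to 69.7 CPM in dataset 2, with no overlap. The difference, dataset 2 against dataset 1, was -0.95 ± 0.13 (edgeR, adjusted p = 0.00378, 38.1% of 17944 genes called), and it was called under each alternative run, from -0.76 to -1.15. In PV nuclei Mef2d was 84.9 and 110 CPM against 51.2 to 67.9 CPM (-0.69 ± 0.23, adjusted p = 0.0317, 26.5% of genes called), a call lost without RunGH (-0.65, adjusted p = 0.348) or SedGH (-0.73, adjusted p = 0.0782) of dataset 2. Background droplets held 61.6 and 61.7 CPM of Mef2d in dataset 1 and 63.1 to 84.4 in dataset 2, and their part in the difference was not tested.

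Mef2c went the opposite way. PV nuclei had 1010 and 712 CPM in dataset 1, below background droplets (1191 and 983 CPM). In dataset 2 they had 1251 to 1418 CPM, above background droplets (1069 to 1199 CPM). The PV levels of the datasets again did not overlap (edgeR, 0.51 ± 0.16, adjusted p = 0.0167). The call did not pass without RunGH of dataset 2 (0.68, adjusted p = 0.0528), SedGH of dataset 1 (0.25, adjusted p = 0.0882) or SedGH of dataset 2 (0.36, adjusted p = 0.237). In pyramidal nuclei the value was 0.39 ± 0.17 (adjusted p = 0.116), and 0.70 (adjusted p = 9.56e-07) without RunGH of dataset 1. Tcf4 in pyramidal nuclei was 774 and 698 CPM in dataset 1 and 614 to 668 CPM in dataset 2 (-0.37 ± 0.10, adjusted p = 0.0355). After subtraction of the background droplets, which held more Tcf4 in dataset 1, the difference was -0.21 (adjusted p = 0.202). It was also not called without RunGH (-0.34, adjusted p = 0.252), SedGH (-0.39, adjusted p = 0.185), RunSI (-0.37, adjusted p = 0.114) or SedSI (-0.37, adjusted p = 0.114) of dataset 2. Mef2a in pyramidal nuclei gave -0.32 ± 0.12 (adjusted p = 0.0722), and -0.47 (adjusted p = 4.33e-04) without SedGH of dataset 1. In PV, Mef2a (-0.05 ± 0.17) and Tcf4 (-0.17 ± 0.14) were not called.

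The datasets were separate experiments that differed in free RNA, depth and behavioural testing, and these cannot be told apart. Of 43 listed partners and targets tested in pyramidal nuclei 9 were higher and 10 lower in dataset 2, near the 38.1% of all genes called in that fit. None of 15 MEF2 repressors and signal enzymes was higher and 7 were lower, among them the deacetylases Hdac7 (-1.05 ± 0.11), Hdac5 (-0.77 ± 0.12) and Hdac4 (-0.71 ± 0.09). None of 13 Tcf4 partners was lower and 6 were higher: Id3 (1.99 ± 0.37), Bhlhe22 (1.86 ± 0.20), Neurod6 (1.54 ± 0.12), Olig1 (1.47 ± 0.29), Id2 (1.37 ± 0.22) and Tcf3 (0.62 ± 0.14). The counts of both lists were also near the 38.1% of all genes, and no direction was read for either list. The median over the 43 genes was -0.15, and over all genes -0.00. In PV nuclei 1 of 26 listed genes was higher and 8 were lower in dataset 2 (26.5% of all genes called), with a median of -0.39 against 0.02 for all genes, whereas DESeq2 called 2 of them.

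The design allowed these genes to be compared in the offspring by maternal running and by isolation. For Run against Sed, fitted over 6 libraries with dataset and housing as terms, 0 of 24 values (4 genes in 6 classes) were called by edgeR, and 0 by DESeq2. Of all genes edgeR called 0% in pyramidal, 0.111% in PV, 0.0513% in SST, 0.0274% in VIP and 0.0495% in NPY nuclei and 0.0708% in astrocytes. At an unadjusted p under 0.05 there were 1334, 616, 590, 341, 309 and 484 genes, and DESeq2 called 45, 9, 4, 1, 1 and 2. Among the 24 values only Mef2d in NPY nuclei had an unadjusted p under 0.05 (-0.61 ± 0.27, edgeR adjusted p = 0.924), on 155 UMIs in all.

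Mef2c had the same sign in 6 of 6 classes, which come from the same libraries and are not independent, without passing in any. Its fitted value was 0.16 ± 0.14 in pyramidal (adjusted p = 0.791), 0.24 ± 0.13 in PV (adjusted p = 0.824), 0.27 ± 0.15 in SST (adjusted p = 0.850), 0.21 ± 0.16 in VIP, 0.22 ± 0.18 in NPY nuclei and 0.01 ± 0.16 in astrocytes. In pyramidal nuclei this rested on dataset 1, since the value was -0.04 without RunGH and -0.04 without SedGH of that dataset. Mef2a ranged from -0.29 ± 0.20 in VIP to 0.15 ± 0.20 in NPY nuclei, and Tcf4 from -0.17 ± 0.12 in astrocytes to 0.10 ± 0.13 in SST nuclei. In pyramidal nuclei, where counts were highest, Mef2a was -0.07 ± 0.09, Mef2d -0.12 ± 0.11 and Tcf4 0.05 ± 0.08.

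The pairs of libraries behind these fits did not show one value. With 1 library on each side, the log2 ratio of Mef2c in pyramidal nuclei was 0.53 (95% counting interval 0.50 to 0.56) in dataset 1, 0.02 (-0.02 to 0.05) in the group-housed pair of dataset 2 and 0.09 (0.07 to 0.12) in the isolated pair. In PV nuclei it was 0.50 (0.37 to 0.64), 0.11 (-0.06 to 0.28) and 0.15 (0.02 to 0.28). In dataset 1 the Run library had more Mef2c in 15 of 15 classes, with 14 intervals above 0 and a median ratio of 0.46. In the group-housed pair of dataset 2 this was 7 of 14 classes with a median of 0.02, and in the isolated pair 13 of 15 with a median of 0.19. The classes of a pair come from the same libraries, so they are not independent.

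**Figure D3:**
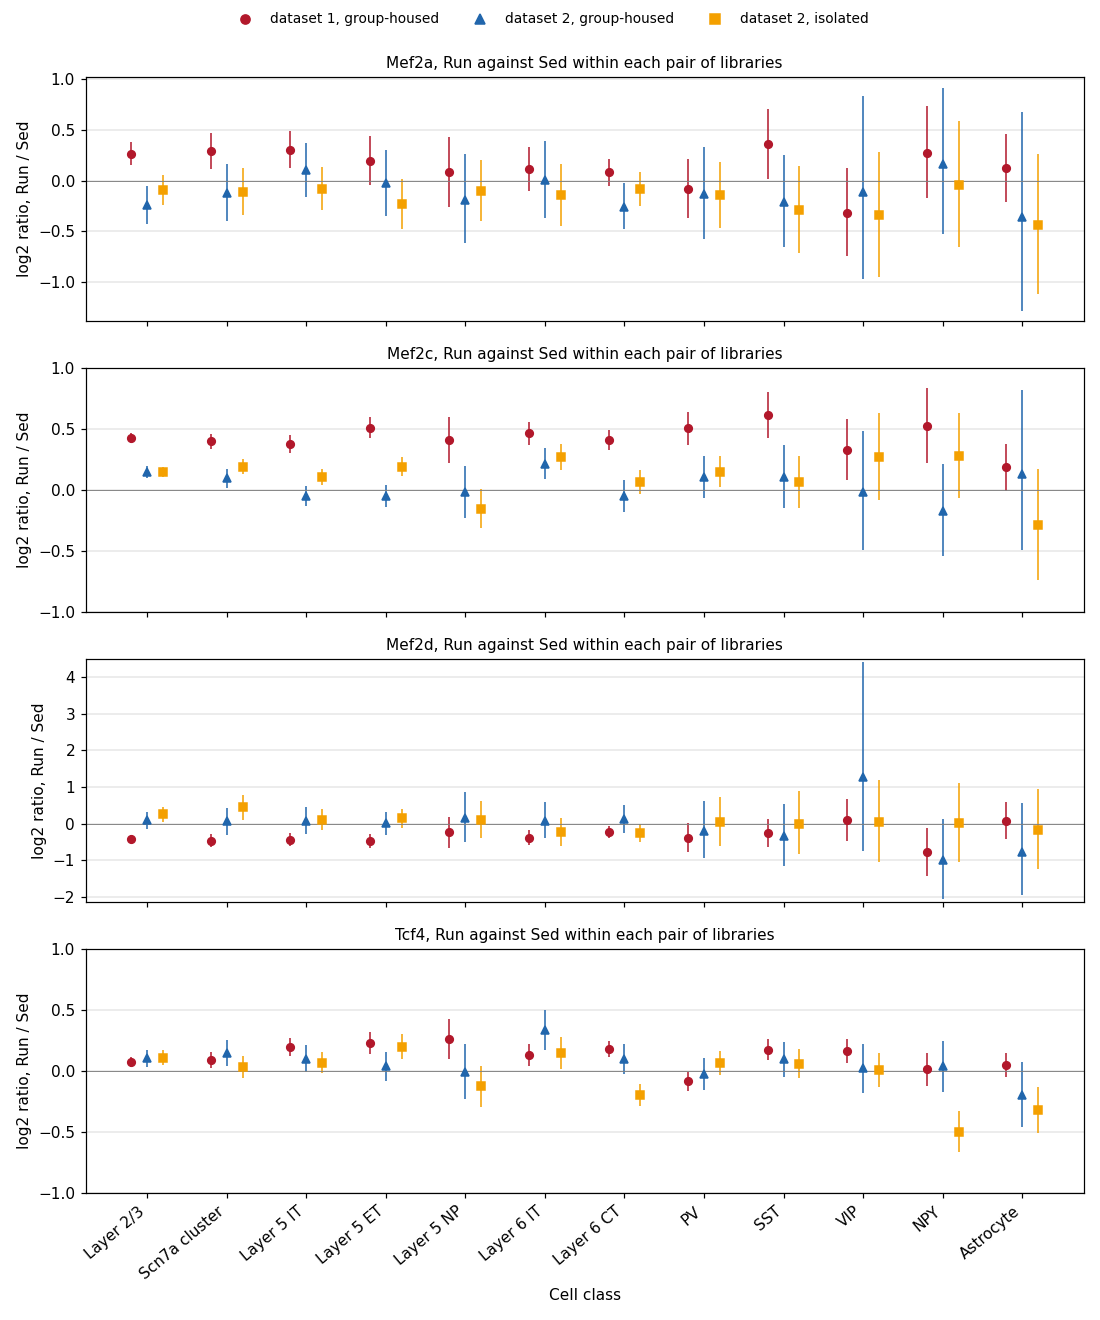
Log2 ratio of CPM, Run over Sed, in each of 3 pairs of libraries for 12 cell classes (panels by gene, axis limits differ), with bars for the 95% counting interval, which holds no spread between animals. For Mef2c the dataset 1 pair lies above both dataset 2 pairs in most classes, and for Mef2d it lies below them in most pyramidal layers.

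The difference between the datasets in this ratio was itself tested with an interaction term. That fit reproduces both libraries of dataset 1 exactly, so its residual degree of freedom lies within dataset 2. Its SE and p-values therefore hold no spread between libraries of dataset 1. They cannot decide whether a dataset 1 ratio exceeds such spread. For Mef2c in pyramidal nuclei the Run against Sed value was lower in dataset 2 than in dataset 1 by 0.61 (-0.61 ± 0.12, edgeR, adjusted p = 2.59e-04, 1 residual degree of freedom, 11.2% of 18690 genes called). It was called in DESeq2 (-0.58, adjusted p = 0.0349), after background subtraction (-0.74) and in layer 6 corticothalamic nuclei alone (-0.51, adjusted p = 0.0413), but not in layer 2/3 nuclei alone (-0.42, adjusted p = 0.0642). In PV nuclei it was -0.46 ± 0.16 (unadjusted p = 0.00337, adjusted p = 0.139, 1.24% of genes called). Mef2d had the opposite sign in pyramidal nuclei (0.38 ± 0.14, adjusted p = 0.0782) and passed with doublets removed (0.42, adjusted p = 0.0340) or nuclei thinned (0.61, adjusted p = 0.0405). Its ratios were -0.41 (-0.47 to -0.35) in dataset 1 and 0.07 (-0.06 to 0.20) and 0.13 (0.03 to 0.23) in dataset 2. Mef2a gave -0.31 ± 0.14 (adjusted p = 0.150), and -0.56 (adjusted p = 0.0450) in layer 2/3 nuclei alone, and Tcf4 -0.20 ± 0.12 (adjusted p = 0.314).

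Other measures moved with the Mef2c ratio of dataset 1. Layer 6 corticothalamic nuclei, where Mef2c was low, made up 10.2% of pyramidal nuclei in RunGH and 23.7% in SedGH of dataset 1, against 12% to 18.0% in dataset 2. Layer 2/3 nuclei, where Mef2c was high, made up 41.8% and 32.6% (30.7% to 36.9% in dataset 2), and the Scn7a-led cluster 14.7% and 11% (9.83% to 12.7% in dataset 2). Within layer 2/3 alone the dataset 1 ratio was still 0.43. Background droplets held 1191 CPM of Mef2c in RunGH and 983 in SedGH of dataset 1. For genes of 100 to 200 kb, the bin that holds Mef2c, the median pyramidal ratio was 0.01 in dataset 1 (1060 genes, 10th to 90th percentile -0.31 to 0.32) and 0.02 and 0.04 in the pairs of dataset 2. Genes under 30 kb, the bin that holds Mef2d, had a median of -0.14 in dataset 1 (2649 genes), 0.24 in the group-housed and 0.14 in the isolated pair of dataset 2, a move in the direction of Mef2d. The part of layer shares, background and gene span in the Mef2c and Mef2d ratios was not tested. Nor was that of the tube test ranks by which the males of dataset 1 were picked.

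Several listed targets differed between datasets in the same direction as Mef2c. Of 43 listed genes tested in pyramidal nuclei, 2 had a higher and 11 a lower Run against Sed value in dataset 2, where of all genes 11.2% were called, 743 higher and 1350 lower. Among 11 MEF2 targets described in neurons 6 were lower and 0 higher (median -0.43, against 0.00 for all genes). They were Homer1 (-1.28 ± 0.13, adjusted p = 2.61e-09), Bdnf (-0.92 ± 0.18), Pcdh17 (-0.71 ± 0.15), Nr4a1 (-0.54 ± 0.14), Adcy8 (-0.50 ± 0.14) and Lgi1 (-0.43 ± 0.14). Homer1 and Bdnf are activity-regulated synaptic genes, and their ratios were 0.63 and 0.32 in dataset 1, -0.41 and -0.35 in the group-housed pair and -0.63 and -0.58 in the isolated pair of dataset 2. Cntnap2 (-0.50 ± 0.11), Hdac9 (-0.63 ± 0.12), Sik3 (-0.45 ± 0.13) and Tcf12 (-0.41 ± 0.13) were also lower. The kinase gene Mapk7 (0.85 ± 0.27) and Neurod2 (0.88 ± 0.17) were higher. DESeq2 called only 2 of the 43 genes, 1 of them a MEF2 target, so the count rests on the choice of test. In PV nuclei 0 of 29 were called by edgeR, where 1.24% of all genes were called, and 0 by DESeq2. Of the 29, 6 had an unadjusted p under 0.05 in edgeR, a count not set against all genes and not read as a result.

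**Figure D4:**
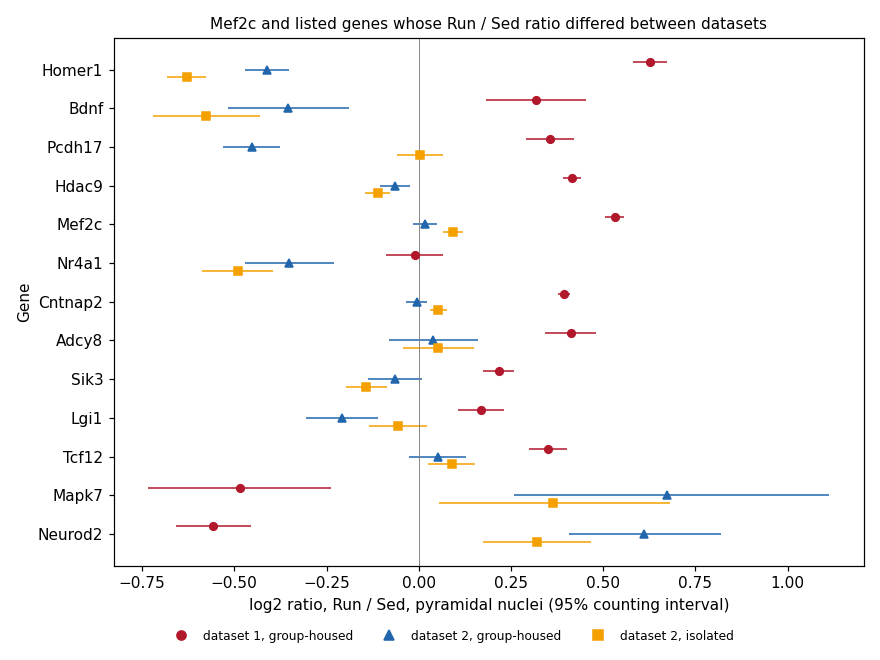
Log2 ratio of CPM, Run over Sed, in pyramidal nuclei for Mef2c and 12 listed genes whose ratio differed between datasets by edgeR, with 95% counting intervals. In the dataset 1 pair Homer1, Mef2c, Hdac9, Adcy8 and Cntnap2 lie between 0.39 and 0.63, whereas Mapk7 and Neurod2 lie below 0 in it and above 0 in both dataset 2 pairs.

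In the Run against Sed fit over the 6 libraries edgeR called none of the listed genes, of 43 in pyramidal and 26 in PV nuclei (medians 0.03 and 0.11, against -0.00 and -0.00 for all genes). At an unadjusted p under 0.05 there were 12 and 4 of them, and DESeq2 called 2 and 0, against 45 and 9 of all genes. The counts over all 17944 and 9941 genes tested at that unadjusted threshold are those given above for this fit. Among the largest fitted values in pyramidal nuclei were -0.74 ± 0.20 for the kinase Sik1, 1.03 ± 0.29 for Id3 and 1.02 ± 0.23 for Olig1, each with an adjusted p of 0.664. In PV nuclei they included -0.46 ± 0.21 for Hdac5, 0.48 ± 0.27 for the calcineurin subunit Ppp3r1 and 0.31 ± 0.31 for Tcf3.

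Social isolation was present in dataset 2 only, and for SI against GH 0 of 24 values were called by edgeR and 0 by DESeq2. Of all genes edgeR called 0% in pyramidal, 0% in PV, 0% in SST, 0% in VIP and 0% in NPY nuclei and 0.0118% in astrocytes, with 168, 171, 219, 212, 214 and 334 genes at an unadjusted p under 0.05. The fitted values ran from -0.33 ± 0.28 (Mef2d, SST) to 0.17 ± 0.18 (Mef2a, PV). In pyramidal nuclei they were 0.11 ± 0.12 for Mef2a, -0.02 ± 0.17 for Mef2c, 0.01 ± 0.13 for Mef2d and -0.03 ± 0.10 for Tcf4. In PV nuclei Mef2c was 0.07 ± 0.16 and Tcf4 -0.02 ± 0.14.

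The isolated and group-housed libraries of dataset 2 were also set side by side. Pyramidal Mef2c had a log2 ratio of 0.01 (-0.01 to 0.03) among Run and -0.07 (-0.10 to -0.03) among Sed libraries, and pyramidal Tcf4 of -0.08 (-0.11 to -0.06) and -0.00 (-0.05 to 0.05). Among the interneuron classes, Tcf4 was most split in NPY nuclei, with 2319 CPM in RunGH and 1914 in RunSI but 2258 in SedGH and 2699 in SedSI. An interaction of isolation and maternal environment was fitted in pyramidal and PV nuclei, and 0 of 8 values were called by edgeR and 0 by DESeq2 (0% and 0.0184% of all genes called, 57 and 277 genes at an unadjusted p under 0.05). The values for Mef2c were -0.23 ± 0.34 and -0.19 ± 0.31 on 1 residual degree of freedom. This term set the isolated Run and Sed pair against both group-housed pairs together, dataset 1 included. Its residual degree of freedom was the mismatch between the group-housed pairs. It therefore cannot decide whether isolation acted differently in Run and Sed offspring. Within dataset 2 alone the pyramidal Mef2c ratios, 0.01 among Run and -0.07 among Sed, had the opposite order.

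For isolation, too, edgeR called none of the listed genes, of 43 in pyramidal and 26 in PV nuclei (medians 0.02 and 0.07, against -0.00 and 0.00 for all genes). At an unadjusted p under 0.05 there was 1 in each class (the counts over all genes are given above), and DESeq2 called 0 and 0. In pyramidal nuclei the largest fitted values included -0.45 ± 0.29 for Kcnq1, -0.28 ± 0.14 for Tcf3 and 0.47 ± 0.25 for Sik1. In PV nuclei they were -0.32 ± 0.19 for Hdac4, -0.29 ± 0.31 for Camk4, 0.41 ± 0.19 for the protocadherin Pcdh17 and 0.41 ± 0.37 for Hdac7.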

How the data were processed

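Libraries were made with the 10x Chromium 3' V3 kit, and the authors counted UMIs with Cell Ranger (6.0.0 in the submitters' notes and the study's methods, 4 in the headers of all 6 matrices, a conflict left unsettled) aligned to mm10, with intronic reads kept per the methods. What they deposited are untransformed UMI counts for every barcode, before any cell calling. Barcodes with 500 to 4000 genes and at most 1% mitochondrial UMIs were kept if they also passed a UMI minimum, the 99th percentile of the top barcodes divided by 10 (621 to 3156 UMIs), because in dataset 1 the first limits left 82376 and 103391 barcodes. The rank that ends those top barcodes was taken from the study's number of nuclei.

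All 6 libraries (19134955 to 188952936 UMIs) were clustered with scanpy 1.11.5 and leidenalg 0.10.2 on Pearson residuals of 3000 genes (35 components, 20 neighbours, resolution 0.6, and 1.0 for inhibitory nuclei). The 4 genes and the listed pathway genes were left out of it. Clusters were named from marker lists, and clusters with pyramidal transcripts beside another class's were kept out. Scrublet-marked doublets (0.758% to 6.79% of nuclei, with the highest scores taken in SedGH of dataset 2, where the automatic threshold marked 0) were removed in an alternative only. Counts were summed per library and class (at least 10 nuclei) and tested with edgeR 4.0.16 (TMM, filterByExpr, quasi-likelihood, two-sided, Benjamini-Hochberg over all genes, threshold 0.05) with terms for dataset, maternal environment and housing (2 residual degrees of freedom, 1 with an interaction), or class and library for class contrasts. DESeq2 1.42.0 and the alternatives in the closing section were also run, and the scripts were tested on simulated data.

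The dataset number was kept as a replicate block because the labels give it as the cohort. Deviations of RunGH and SedGH with the same number correlated at 0.684 over 15758 genes. The named genes were the 4 members, listed genes called in a test, up to 2 listed genes per direction with the largest fitted change (at least 100 counts), and 5 most alike genes per member, but some genes that this rule names are not reported here. The members and lists were chosen with earlier results of these data known. A share of 0 was read as up to 3 counts. Positions are from GENCODE M21, which matched 99.61% of features.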

Additional observations from a re-analysis of the deposited data

Results flagged for a closer look

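The Run against Sed value differed between the datasets by the edgeR interaction term (dataset 2 minus dataset 1, pyramidal nuclei, adjusted p under 0.05) for Mef2c, at -0.61. Among the listed partners and targets it also differed for Homer1 (-1.28), Bdnf (-0.92), Pcdh17 (-0.71), Hdac9 (-0.63), Nr4a1 (-0.54), Cntnap2 (-0.50), Adcy8 (-0.50), Sik3 (-0.45), Lgi1 (-0.43) and Tcf12 (-0.41). In the opposite direction it differed for Mapk7 (0.85) and Neurod2 (0.88). The residual degree of freedom of this fit lies within dataset 2, so its p-values hold no spread between libraries of dataset 1. Each value rests on 1 Run and 1 Sed library in dataset 1 and 2 of each in dataset 2, and 11.2% of all genes were called in the same fit. The shares of layer 6 corticothalamic, layer 2/3 and Scn7a-led nuclei and the Mef2c level of background droplets moved with the dataset 1 ratio of Mef2c, and their part in it was not tested. Males of dataset 1 were also picked by tube test rank, and its part was not tested either. No group had 4 or more libraries, so no single library could be tested as an outlier within its group.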

How the results depend on the processing

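Of 1244 values recomputed under another setting, 1215 kept their side of the threshold, 21 lost and 8 gained a call, and none that was called turned its sign. Another 124 values that were not called changed sign, all with a size of at most 0.25. Between the datasets 4 of 8 values were called, but 2 in DESeq2 and 2 with nuclei thinned to 1000 UMIs, and 1 to 5 when a library was left out (1 without RunGH or SedGH of dataset 2). For the difference of Run against Sed between datasets 1 of 8 was called, and 2 with doublets removed or with thinned nuclei (doublet removal, background subtraction, log-normalized clustering and the layers alone were chosen for this result after seeing the data). The 13 calls between classes became 14 in DESeq2, 12 of them shared, and 11 to 13 without a library. The cause of these changes was not tested. The dataset number is the replicate number, and with no replicate block 0 of 24 values were called for Run against Sed and 0 of 24 for SI against GH, as with it, so leaving the block out changed no call. The interaction fits have no residual degrees of freedom without a library or on group-housed libraries alone, so these are given as ratios only.

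Counts over all genes moved far more. Leaving out either library of dataset 1 leaves Run against Sed and SI against GH to dataset 2 alone, so those settings are not separate checks. For Run against Sed, 0 pyramidal genes became 2490 without SedGH of dataset 1, 2456 without RunGH of dataset 1 and 45 in DESeq2. Over settings PV ranged from 0 to 115 (11 as reported), SST 0 to 89 (5), VIP 0 to 13 (2), NPY 0 to 21 (3) and astrocytes 0 to 24 (6). For SI against GH the highest counts were 23 in pyramidal, 2 in PV, 3 in SST, 2 in VIP nuclei and 4 in astrocytes. Between datasets pyramidal counts ranged from 3009 to 9022 (6844) and PV from 794 to 3057 (2636). The interaction with dataset ranged from 412 to 2367 (2093) and from 1 to 182 (135), with DESeq2 lowest, which called 66 higher and 346 lower in pyramidal nuclei against 743 and 1350, and 0 and 1 in PV against 25 and 110. Between classes the thinned nuclei gave the fewest calls: 3265 of 6123 for astrocytes, 2120 of 3845 for microglia, 2134 of 4559 for PV against pyramidal, 929 of 1997 for PV against SST, 1096 of 2335 for VIP, 1025 of 2243 for NPY and 1075 of 1887 for oligodendrocytes. DESeq2, which tested more low genes, moved the median of all genes from 0.07 to 0.67 for astrocytes, from -0.16 to 1.59 for microglia (3459 higher and 1516 lower against 1628 and 2217) and from 0.06 to 0.36 for PV, each against pyramidal nuclei, while the 4 genes moved by at most 0.26. Depth limits Mef2d most, with 155 to 400 UMIs in an interneuron class.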
